A study of Triticum turgidum subsp. durum with 8 samples.

Results

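Seedlings that met stress in both generations were compared with seedlings that never met it. The comparison used 4 of the 8 small RNA libraries of the series. AuWH_N and L6WH_N were made from N-starved progeny of parents that had been exposed to water deficit and heat (WH). AuCG_C and L6CG_C were made from progeny given full nutrients, whose parents had been kept under control conditions (CG). The 2 libraries of a side were paired by genotype, since Au stands for DBA Aurora, which tolerates WH stress, and L6 for a durum wheat genotype that is sensitive to it. All samples were shoots of durum wheat (Triticum turgidum subsp. durum) at 3 weeks, and each library was made from equal amounts of RNA of 6 plants of 1 condition, so that no condition had a replicate library. Parental and progeny stress changed together here, so within these 4 libraries their parts cannot be told apart. The remaining 4 libraries met 1 stress each (AuCG_N and L6CG_N, AuWH_C and L6WH_C) and served to estimate the spread and the interaction. Each distinct sequence was counted once, and those with a mean normalized reads count of 10 or more over the 4 libraries were tested, which were 611 of 1473.

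MiRNAs are short RNAs, cut from a hairpin by a Dicer enzyme, that guide an Argonaute protein to complementary transcripts and thereby lower the expression of their targets. Bases 2 to 8 form the seed, and in plants most of the remaining bases pair with the target as well. Several conserved families follow the nutrient status of the plant. MiR169 targets NF-YA transcription factors that act in N and drought responses, miR399 targets the phosphate regulator PHO2, and miR827 targets genes with an SPX domain. Others act in development or hormone signalling, such as miR159 with GAMYB factors, miR319 with TCP factors and miR167 with auxin response factors.

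Strands that fell are shown first, chosen to cover miR169 on both arms and the other families and entries with falls described further down. Entries carry the name of the closest known miRNA, with suffixes for shifted ends (L, R) and substitutions (ss), and -p5 or -p3 marks a strand predicted from the other arm of a known hairpin. Sequences are given 5′ to 3′ with T for U, and capitals mark the seed.
ata-miR169i-5p_1ss15TC: tAGCCAAGgatgacctgcctg
ata-miR169a-5p: tAGCCAAGgatgatttgcctgtg
ata-miR169d-5p: cAGCCAAGgatgacttgccgg
ata-miR169a-3p: tGGGCAAGtcaccctggctacc
ata-MIR169d-p3: tTGTCCTTggctacacctagt
bdi-miR169c-3p_L+1_2ss6GA13CT: cGGCAAGTtgtctttggctac
ata-miR169f-3p_R-1: gGCAAGTCcgtccttggctac
osa-miR399d: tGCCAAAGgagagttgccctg
bdi-miR399a_1ss16AG: tGCCAAAGgagaattgccctg
osa-miR827: tTAGATGAccatcagcaaaca
mtr-miR398a-5p_2ss9AG17CA: gGAGTGACgctgagaaaacaag
tae-miR9774_L+1: aCAAGATAttgggtatttctgtc
PC-3p-22927_182: tTGGGTATttctgtctttaa
PC-3p-24935_169: aACCAAAGctggcataccttc

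The strands that rose are fewer, and no seed was shared between families.
osa-miR159c_R-2_1ss1AC: cTTGGATTgaagggagctc
bdi-miR159a-3p: cTTGGATTgaagggagctct
bdi-miR159a-5p_R+1: aGCTCCCTtcgatccaatcc
zma-miR319b-5p: aGAGCGTCcttcagtccactc
ata-miR167b-3p: aGGTCATGctggagtttcatc
tae-MIR9676-p3: tACGGCCTgatgacatccacg
tae-miR9672a-3p: cCACGACTgtcattaagcatc
ata-miR5062a-3p_2ss2TC18AG: gCGGATTTttcaccaaggttcaag
gma-MIR5368-p3_1ss4GA_2: gCCAAGGGacagtctcaggt

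Stress in both generations went with lower counts of miR169, miR399 and miR827 strands (1 of 5 called for miR827), near 0 for many of miR169, and with higher counts of a small set of developmental and wheat miRNAs. Differential expression was tested with limma on log2(count + 1), with the 4 combinations of parental and progeny treatment and the genotype in 1 model of all 8 libraries. The log2 change is therefore the mean of the change in DBA Aurora and the change in L6. At an adjusted p below 0.05, 46 of the 611 sequences were differentially expressed (7.53%), with 10 up-regulated (1.64%) and 36 down-regulated (5.89%). At an unadjusted p below 0.05 there were 145 (23.7%). All 46 moved the same way in both genotypes without overlap between the 2 sides, which over all tested sequences was the case for 58.1%. Of the 36 that fell, 24 were miR169 and 12 belonged to other families or to none. The 12 were named after their values were seen. Over the 611 sequences the median change was −0.09, the median standard error 0.54, and the smallest change called was −1.22, of bdi-MIR171a-p5. An exact permutation test of 2 libraries against 2 cannot give a p below 0.333 and was not used. As each condition has 1 library, the p-values rest on the spread between these 8 libraries alone, and in bulk shoots fewer cells of a type cannot be told apart from less RNA per cell. The calls depend on single libraries. Leaving out AuCG_C, AuWH_N, L6CG_C or L6WH_N left 15, 12, 19 and 20 calls, each time with 0 rises, whereas the fit without AuCG_N had 80. Leaving out 1 of the 4 compared libraries moved the change of 20 of the 46 by over 1.5 times, by at most 1.51 on the log2 scale.

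**Figure D1:**
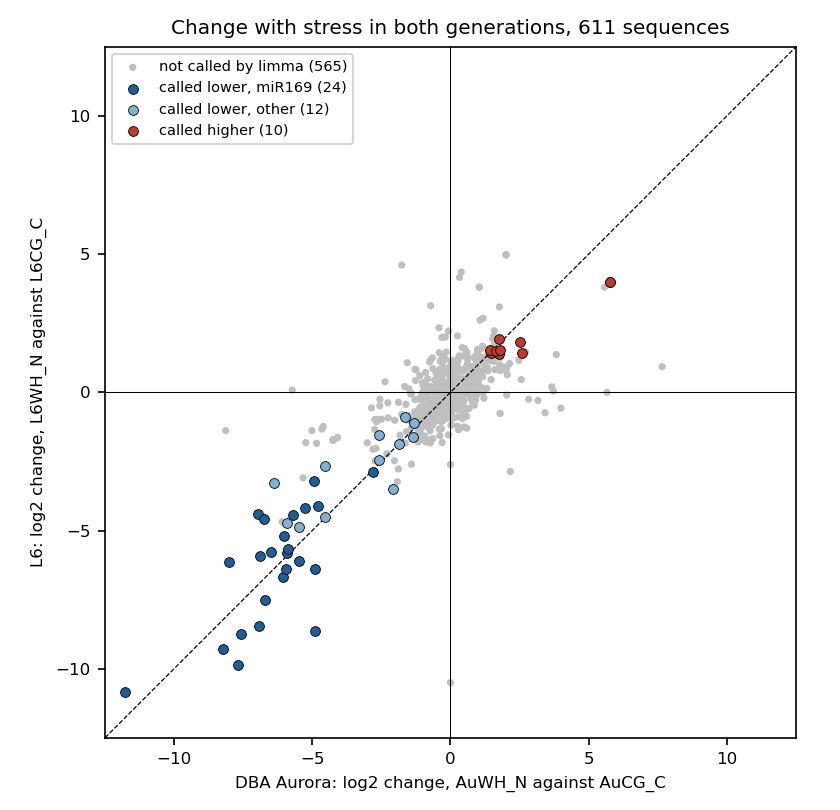
Log2 change with stress in both generations in DBA Aurora (x axis, AuWH_N against AuCG_C) and in L6 (y axis, L6WH_N against L6CG_C), on the log2(count + 1) scale. Each point is 1 of the 611 tested sequences and the dashed line marks equal change. The 24 called miR169 strands fill the lower left corner, the 10 rises lie in the upper right, and the grey points are the 565 sequences that limma did not call.

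The deepest of the 4 libraries, L6WH_N, was on the doubly stressed side. From the value of 1 read in each library, between 0.895 (AuCG_C) and 1.08 (L6CG_C) in 3 of the 4 libraries and 0.649 in L6WH_N, the estimated miRNA reads came to 1477610 in AuCG_C, 1318900 in AuWH_N, 1214010 in L6CG_C and 2305750 in L6WH_N. The table lists almost nothing under 5 reads, which is a count of 3.25 in L6WH_N and of 5.39 in L6CG_C, so a sequence listed at 0 may have had up to about 4 reads. The 611 tested sequences hold at least 99.8% of the counts of each of the 4 libraries. They include 101 that share all 8 values with another tested sequence, and they amount to 548 distinct sets of values.

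MiR169 was nearly gone from the doubly stressed shoots. The summed count of the family, over its 44 sequences, was 27381 in AuCG_C and 467 in AuWH_N, and 30863 in L6CG_C and 1129.6 in L6WH_N. The family took 2.07% and 2.36% of all miRNA counts in the never-stressed libraries of DBA Aurora and L6, and 0.0348% and 0.0754% in the doubly stressed ones. The mean was 36.5-fold lower (log2 −5.32, standard error 0.42), with an adjusted p of 3.88e-06 by limma over 104 families. Without AuWH_N the log2 change of miR169 was −4.63, and without L6WH_N it was −6.01. Of 27 tested members 24 were called lower and none higher, and all 27 had both stressed libraries below both never-stressed ones, against 33.6% of all tested sequences.

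The largest single fall was that of ata-miR169a-3p, the 3′ strand of the miR169a hairpin. Its normalized reads count was 3526 in AuCG_C and 0 in AuWH_N, and 6073 in L6CG_C and 2.27 in L6WH_N, which is −11.32 on the log2 scale (standard error 0.80, adjusted p = 0.000632 by limma). Its partner ata-miR169a-5p, with 189 in AuCG_C and 430 in L6CG_C, was listed at 0 in both stressed libraries (log2 −8.16). Both strands of this hairpin were thus lost together. The hairpin lies at LT934117.1:613053326-613053472 on the plus strand of Svevo.v1, where the table names the genome sequence by its identifier and gives no gene feature. It is printed to show how the pair of strands, in capitals, sits in it.
ata-miR169a hairpin: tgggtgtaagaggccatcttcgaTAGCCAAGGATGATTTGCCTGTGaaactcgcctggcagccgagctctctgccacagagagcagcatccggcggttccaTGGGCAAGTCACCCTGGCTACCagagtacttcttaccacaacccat

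Other strands at 0 in both doubly stressed libraries were ata-miR169i-5p_1ss15TC (207 in AuCG_C, 938 in L6CG_C, log2 −8.79), ata-miR169h-3p_L-1 (302 and 621, −8.76), far-MIR169-p5_2ss18CT24AG (121 and 346, −7.68) and bdi-MIR169c-p5_1ss16GC (105 and 180, −7.11). These log2 values depend on the pseudocount and may overstate the fall where a listed 0 hides a few reads. Of the 36 called falls, 14 were at 0 in both stressed libraries. Such strands passed the filter only through the never-stressed libraries, where they are high, so their p-values are weak support. With a pseudocount of 5 the median of the 27 tested miR169 sequences was −4.12 in place of −5.80. Against a floor of 5 reads, averaged over both stressed libraries, ata-miR169i-5p_1ss15TC was at least 137-fold lower and ata-miR169h-3p_L-1 at least 111-fold. A further pair was at 0 in 1 stressed library alone. far-MIR169-p3_1ss8AG was at 260 in AuCG_C and 0 in AuWH_N, and at 297 in L6CG_C and 3.25 in L6WH_N (−7.08). bdi-MIR169c-p3 was at 183 and 5.09 in DBA Aurora and at 395.5 and 0 in L6 (−6.78). bdi-MIR169d-p3, at 65.3 in AuCG_C and 102 in L6CG_C, was again at 0 in both stressed libraries (−6.37).

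Other abundant miR169 strands stayed above 0 in all 4 libraries. bdi-miR169c-3p_L+1_2ss6GA13CT went from 8468 in AuCG_C to 130 in AuWH_N and from 9136 in L6CG_C to 245 in L6WH_N, a 46.8-fold lower mean (log2 −5.61, standard error 0.53, limma adjusted p = 0.00134). ata-miR169f-3p_R-1 went from 7258 to 234 in DBA Aurora and from 6258 to 683 in L6 (14.7-fold, log2 −4.07). ata-MIR169d-p3 was at 2789 in AuCG_C and 22.4 in AuWH_N, and at 2524 in L6CG_C and 40.3 in L6WH_N (84.8-fold, log2 −6.42). For these 3 strands the fall was larger in DBA Aurora than in L6 (−6.01 against −5.21, −4.95 against −3.19 and −6.90 against −5.94). bdi-MIR169c-p3 and ata-miR169i-5p_1ss15TC had the larger fall in L6 on the log2(count + 1) scale. ata-miR169i-5p_1ss15TC was at 0 in both stressed libraries, so its difference only reflects the higher start in L6CG_C. bdi-MIR169c-p3 was at 5.09 in AuWH_N, the floor of 5 reads there, and listed at 0 in L6WH_N. None of these differences between the genotypes passed the test described further down.

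The seed AGCCAAG, of the canonical 5′ strands of miR169, was carried by 9 tested sequences, and 7 of them were called lower (median log2 −5.77). Many 3′ strands were called as well, so the loss took in both arms. All 10 pairs of miR169 arms that map to 1 hairpin had both arms called lower, with each arm represented by its most abundant tested strand. Some of these pairs share a strand or lie in overlapping hairpins, so they are not 10 independent observations. The 3 members that were not called were zma-MIR169k-p3_2ss15CT19TC (log2 −5.39, adjusted p = 0.068), bdi-miR169c-5p_R+2 (−4.22, adjusted p = 0.152) and sly-miR169a_R+4 (−2.86, adjusted p = 0.183). These 3 were named after their values were seen. Some called strands overlap in sequence, such as ata-miR169d-5p and osa-miR169e_R+1_1ss1TC, which share 21 bases and differ by 1 base in length, so they are not independent observations.

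MiR399 and miR827, the families tied to phosphate, were lower too. osa-miR399d had 593 counts in AuCG_C and 12.2 in AuWH_N, and 374 in L6CG_C and 11.7 in L6WH_N, a 40.5-fold lower mean (log2 −5.19, standard error 0.58, limma adjusted p = 0.00297). bdi-miR399a_1ss16AG, which has the same seed GCCAAAG, went from 321 to 12.9 in DBA Aurora and from 137 to 20.8 in L6 (log2 −3.60). The other arm of that hairpin, bdi-MIR399a-p5, was at 83.2 in AuCG_C and at only 8.62 in L6CG_C, and was listed at 0 in both stressed libraries (log2 −4.83, adjusted p = 0.0486). All 3 tested miR399 sequences therefore fell. bdi-MIR399a-p5 passed the filter only through the never-stressed libraries, mostly AuCG_C, so its p-value is weak support. Its call was lost without a filter and with the 4 compared libraries alone. osa-miR827 went from 8655 to 1431 in DBA Aurora and from 5412 to 1836 in L6, a 4.31-fold lower mean (log2 −2.08, standard error 0.42, adjusted p = 0.0336). It was the only one of 5 tested miR827 sequences to be called, and 4 of the 5 had both stressed libraries below both never-stressed ones, against 33.6% of all tested sequences. The call of osa-miR827 was lost without a filter, without a mean trend, when scaled to clear reads and in a model without the interaction. That of bdi-miR399a_1ss16AG was lost without a filter and without a mean trend. The single tested sequence of miR395, which targets ATP sulfurylases, was bdi-miR395a, with 34.5 and 9.48 in DBA Aurora and 21.0 and 11.6 in L6 (log2 −1.28, adjusted p = 0.256). Of the 36 tested members of the nutrient and N families (miR169, miR395, miR399, miR827), 28 were lower and 0 higher with a median of −5.63, against 36 lower and 10 higher of the 611 and a median of −0.09. This list is mostly miR169, which supplied 27 of its members and 24 of its calls. The medians of miR399, miR827 and miR395 alone were −4.83, −1.58 and −1.28.

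The copper and redox families (miR397, miR398, miR408, miR528), which target copper proteins such as superoxide dismutases and laccases, had values on both sides of 0. Of 9 tested members 1 was lower and 0 higher (11.1% called, against 7.53% of all tested sequences), with a median of −0.50. The one that fell was mtr-miR398a-5p_2ss9AG17CA, a strand from the 5′ arm, with 59.1 in AuCG_C and 0 in AuWH_N, and 129 in L6CG_C and 3.90 in L6WH_N (log2 −5.32, standard error 0.61, adjusted p = 0.00307). Both strands named after wheat miR398 were higher in both stressed libraries and missed the threshold in the main fit. Rises called in miR398 numbered 1 when scaled to clear reads or by quantile normalization, 2 with a pseudocount of 5 and 0 at equal totals. tae-miR398_L-1R+1 was at 17.0 in AuCG_C and 117 in AuWH_N, and at 45.3 in L6CG_C and 127 in L6WH_N (log2 2.09, adjusted p = 0.053). tae-MIR398-p5 was at 81.4 and 458 in DBA Aurora and at 138 and 309 in L6 (log2 1.82, adjusted p = 0.057). osa-miR398a_L+1R-1 was at 161.98 and 30.6 in DBA Aurora but at 94.8 and 124 in L6 (log2 −0.99, adjusted p = 0.717). The values of tae-MIR397-p5, of the laccase-targeting miR397, lay close together, at 197 and 168.1 in DBA Aurora and at 228 and 234 in L6 (log2 −0.10).

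Of the falls outside the nutrient families, 3 were of wheat miRNAs and 2 of entries not assigned to a known miRNA. tae-miR9774_L+1, of 23 nt, went from 5075 in AuCG_C to 849 in AuWH_N and from 4270 in L6CG_C to 781 in L6WH_N, a 5.73-fold lower mean (log2 −2.51, standard error 0.44, adjusted p = 0.0203). PC-3p-22927_182, an entry not assigned to a known miRNA, shares 15 bases with it, so the 2 are not independent observations. This entry went from 59.1 to 13.2 and from 218 to 18.2 (log2 −2.79, adjusted p = 0.038). PC-3p-24935_169, the other called entry of this kind, went from 22.4 to 0 in DBA Aurora and from 94.8 to 3.25 in L6 (log2 −4.52, adjusted p = 0.00467). Of the abundant wheat family miR9674, ata-miR9674b-3p went from 21744 to 6876 and from 13628 to 7308 (2.49-fold, log2 −1.28, adjusted p = 0.0445), and tae-MIR9674a-p3_1ss4GA from 1184 to 462 and from 1200.4 to 391 (2.79-fold, log2 −1.49). Both miR9674 calls, and that of PC-3p-22927_182, were lost without a filter, without a mean trend, when scaled to clear reads and by quantile normalization. The dominant strand of that family, tae-miR9674b-5p, was at 139332 and 103871 in DBA Aurora and at 103959 and 113375 in L6 (log2 −0.15, adjusted p = 0.860).

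Strands of 2 conserved developmental hairpins fell as well. ata-miR396c-3p, the partner strand of a miRNA that targets growth-regulating factors, went from 1340 to 372 and from 2393 to 648 (3.66-fold, log2 −1.86, standard error 0.33, adjusted p = 0.0213). The 5′ strand of its hairpin, ata-miR396c-5p, was at 34083 and 28235 in DBA Aurora and at 62421 and 30588 in L6 (log2 −0.65, adjusted p = 0.478). bdi-MIR171a-p5, from the 5′ arm of a hairpin of miR171, a family that targets GRAS transcription factors, went from 1578 to 628 and from 1759 to 809 (2.32-fold, log2 −1.22, adjusted p = 0.0448). Its call was lost without a filter, without a mean trend, when scaled to clear reads and by quantile normalization. With the 4 compared libraries alone and the genotype as a block it was lost too. That of ata-miR396c-3p was lost without a mean trend, and with the 4 compared libraries alone and no block.

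**Figure D2:**
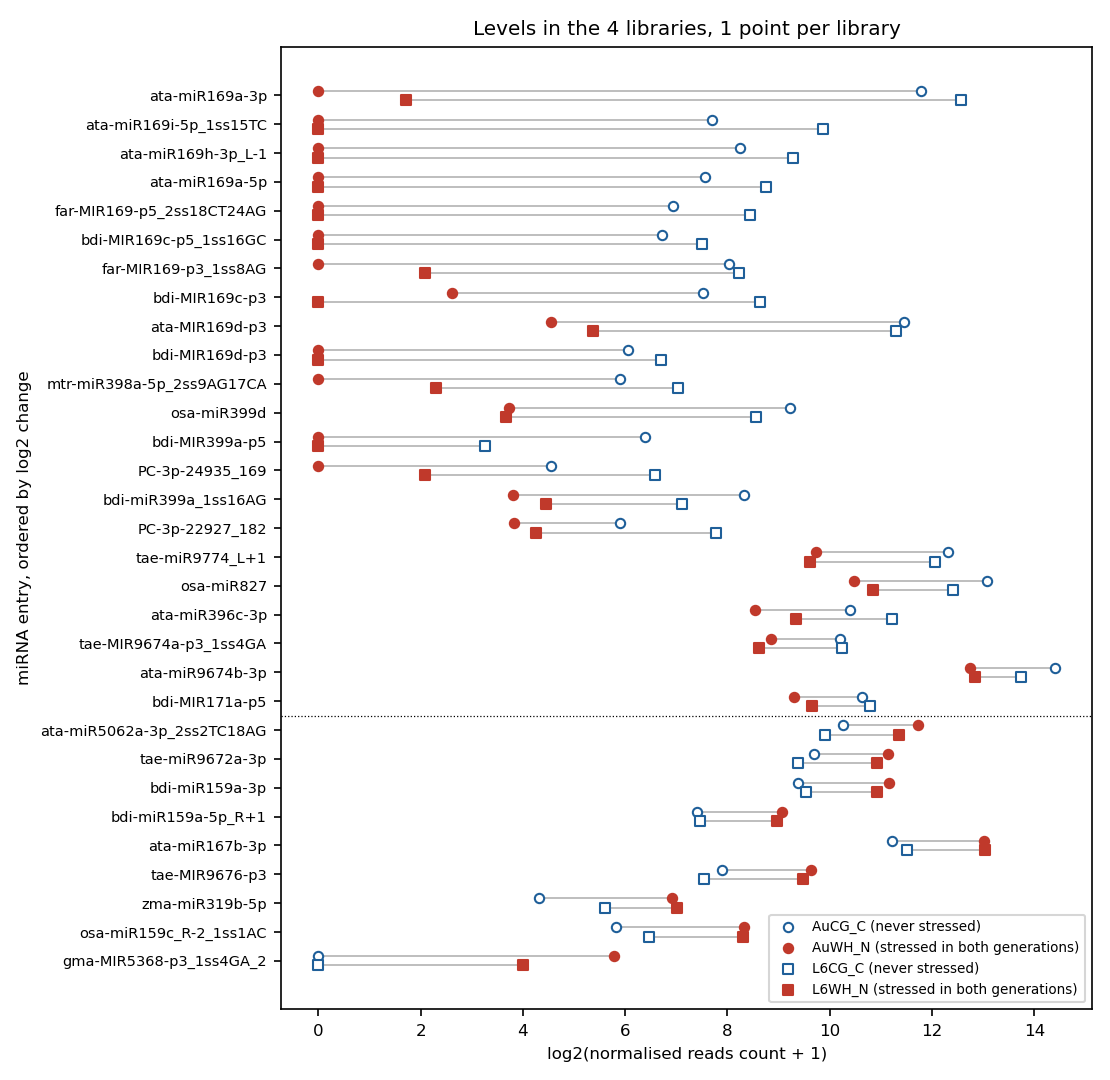
Normalized reads counts, as log2(count + 1), in the 4 libraries for the 10 largest falls, the other falls outside miR169 and the rises (below the dotted line, with the pair of identical miR5368 entries drawn once). Circles are DBA Aurora and squares L6, open symbols the never-stressed and filled symbols the doubly stressed library, with 1 library per point. In no entry do the open and filled symbols overlap, and several miR169 strands sit at 0 in both stressed libraries.

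Except for the miR5368 pair, the rises lay between 2.74-fold and 4.45-fold, and their sequences were listed in all 4 libraries. MiR159 held 3 of the 10 rises. osa-miR159c_R-2_1ss1AC went from 55.5 in AuCG_C to 321 in AuWH_N and from 87.3 in L6CG_C to 315 in L6WH_N (log2 2.17, standard error 0.34, limma adjusted p = 0.0123). bdi-miR159a-3p, which has the same 19 bases and 1 more at the 3′ end, went from 668 to 2274 and from 746 to 1933 (log2 1.57, standard error 0.28, adjusted p = 0.0215). bdi-miR159a-5p_R+1, a 5′ strand, went from 168.2 to 534 and from 175 to 499 (log2 1.59, adjusted p = 0.0341). The main strand, tae-miR159a, was at 11549 and 20050 in DBA Aurora and at 12937 and 16077 in L6 (log2 0.55, adjusted p = 0.251), and was named after its values were seen. All 9 tested miR159 sequences had both stressed libraries above both never-stressed ones, with changes between 0.55 and 2.17, where this held for 24.5% of all tested sequences. Some of them share bases, so they are not independent observations. The summed count of miR159 was not called (log2 0.67, limma adjusted p = 0.162).

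MiR319, whose sequence is related to that of miR159, had 1 rise. zma-miR319b-5p went from 18.8 to 119 in DBA Aurora and from 47.4 to 128 in L6 (log2 2.01, standard error 0.44, adjusted p = 0.0402). The call of zma-miR319b-5p was lost without a filter, at equal totals, without a mean trend and with the 4 compared libraries alone. All 5 tested miR319 sequences were higher in both stressed libraries than in both never-stressed ones, with log2 changes from 0.81 to 2.01, against 24.5% of all tested sequences. As members of 1 family they are not independent observations. The summed count of miR319 was not called (log2 1.17, limma adjusted p = 0.069). The single auxin miRNA that rose was ata-miR167b-3p, the partner strand of miR167, which went from 2383 to 8296 and from 2917 to 8407 (3.15-fold, log2 1.66, standard error 0.28, adjusted p = 0.0172). The guide strand of the same hairpin, ata-miR167b-5p, was at 15727 and 37465 in DBA Aurora and at 13673 and 25857 in L6 (log2 1.09, adjusted p = 0.171), and another abundant member, tae-miR167c-5p, was at 23757 and 19963 and at 22566 and 25189 (log2 −0.05).

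Wheat miRNAs among the rises were tae-MIR9676-p3 and tae-miR9672a-3p. tae-MIR9676-p3 went from 237 in AuCG_C to 797 in AuWH_N and from 186 in L6CG_C to 716 in L6WH_N (3.57-fold, log2 1.84, standard error 0.36, adjusted p = 0.0308). Its partner tae-miR9676-5p was at 280 and 845 in DBA Aurora and at 228 and 1075 in L6 (log2 1.91, adjusted p = 0.057). They come from a hairpin at LT934116.1:208059262-208059379 on the minus strand of Svevo.v1, shown with both strands in capitals.
tae-miR9676 hairpin: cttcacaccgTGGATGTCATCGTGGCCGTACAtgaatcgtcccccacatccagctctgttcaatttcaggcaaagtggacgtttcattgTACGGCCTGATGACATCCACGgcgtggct
tae-miR9672a-3p went from 825 to 2241 in DBA Aurora and from 664 to 1941 in L6 (2.81-fold, log2 1.49, adjusted p = 0.038). ata-miR5062a-3p_2ss2TC18AG went from 1228 to 3382 and from 964 to 2617 (2.74-fold, log2 1.45, adjusted p = 0.0346). The entries gma-MIR5368-p3_1ss4GA_1 and gma-MIR5368-p3_1ss4GA_2, of 19 and 20 nt, share their values and are 1 observation. They were listed at 0 in both never-stressed libraries, at 54.0 in AuWH_N and at 14.9 in L6WH_N, which is at least 6.99-fold higher against the floor of 5 reads averaged over both never-stressed libraries (adjusted p = 0.036). They passed the filter only through the stressed libraries, where they are high, so their p-value is weak support. Their call was lost without a filter and with the 4 compared libraries alone.

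The remaining lists of families by role are given by their counts, to be read against 1.64% higher and 5.89% lower among all tested sequences. Of the 46 calls behind these shares, 24 came from the 27 miR169 sequences, so the share among the other sequences is smaller. Under other scalings the median of all 611 sequences moved from −0.09 to −0.19 (equal totals), 0.05 (per clear reads) and 0.13 (quantile normalization). The medians of the MADS-box list, miR168, the entries not assigned to a known miRNA and the sequences of 23 to 25 nt changed sign with the last 2 scalings, and those of 20 to 22 nt and of the wheat sequences with the last. The medians of the other lists named here kept their sign. The leaf, meristem and flower families (miR159, miR164, miR165, miR166, miR171, miR319, miR394, miR396) had 4 higher and 2 lower of 58 (median 0.31), which is 10.3% called against 7.53% of all tested sequences. Their most abundant member, osa-miR396e-5p, was at 181074 and 350010 in DBA Aurora and at 178913 and 391698 in L6 (log2 1.04, adjusted p = 0.124). ata-miR166a-3p, of the family that targets HD-ZIP III factors, was at 18576 and 33759 and at 20989 and 25311 (log2 0.57), and ata-miR164b-5p, of the NAC-targeting miR164, at 24762 and 20156 and at 21675 and 24818 (log2 −0.05). The auxin families (miR160, miR167, miR390, miR393) had 1 higher and 0 lower of 29 (3.45% called, median 0.41). ttu-miR160, of the family that targets auxin response factors, was at 2282 and 2736 in DBA Aurora and at 1324 and 2862 in L6 (log2 0.69, adjusted p = 0.451), and osa-miR393a_L+1R+2 at 11.6 and 16.3 and at 5.39 and 14.9 (log2 0.89, adjusted p = 0.805). The auxin receptor regulator ata-miR393-5p was at 12869 and 15874 and at 12829 and 18286 (log2 0.41).

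No member of the phase change families (miR156, miR172, miR529) was called by limma among 15, 2 had an unadjusted p below 0.05, and the median was 0.57. bdi-miR156b-5p, of the family that targets SPL factors, was at 3041 and 6441 in DBA Aurora and at 5089 and 5315 in L6 (log2 0.57). ata-miR172b-3p, of the AP2-targeting miR172, was at 3385 and 2471 and at 3013 and 2844 (log2 −0.27). The AGO1-targeting miR168 had 2 tested strands and 0 calls by limma, also at an unadjusted p below 0.05, with osa-miR168a-5p at 110234 and 105990 in DBA Aurora and at 127675 and 140531 in L6 (log2 0.04, adjusted p = 0.964). MADS-box-targeting miR444 had 0 calls of 9 (2 at an unadjusted p below 0.05), and osa-miR444a-3p.2, at 1997 and 710 and at 1293 and 717, had a log2 value of −1.17 (adjusted p = 0.089). In the 118 wheat sequences 2 were higher and 3 lower (median −0.15). In the 69 entries not assigned to a known miRNA 0 were higher and 2 lower (median −0.08), led in abundance by PC-3p-361_12038 at 1292 and 3025 and at 1290 and 2704 (log2 1.15, adjusted p = 0.072). The 17 sequences that end in CCA, as mature tRNAs do, had 0 calls (2 at an unadjusted p below 0.05) and a median of 0.69.

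MITE-like families, whose hairpins resemble small transposons, had 604 sequences, of which 438 did not pass the filter. Among the rest limma made 0 calls, where 7.53% of all tested sequences were called, and 26 had an unadjusted p below 0.05. Of the 46 calls behind the 7.53%, 24 were miR169. The median was −0.21. Their most abundant member, tae-MIR1137a-p3_1ss9CT, was at 3820 and 3305 in DBA Aurora and at 4587 and 4420 in L6 (log2 −0.13). Of 27 tested miR1120 sequences, 20 had both stressed libraries below both never-stressed ones and 2 above, with a median of −1.03, against 33.6% and 24.5% of all tested sequences. These 27 sequences hold 16 distinct sets of values. By length, 7 of 406 sequences of 20 to 22 nt were higher and 30 lower (median −0.16), and 1 of 190 of 23 to 25 nt was higher and 3 lower (median −0.05).

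Summed by family, 10 of 104 were called (9.62%), 8 lower (7.69%) and 2 higher (1.92%), and 21 at an unadjusted p below 0.05 (20.2%). After miR169 the largest fall was that of miR399, with 1100.1 in AuCG_C and 25.1 in AuWH_N, and 520 in L6CG_C and 32.5 in L6WH_N (log2 −4.68, adjusted p = 0.000446, and between −5.44 and −3.92 for miR399 when 1 library was left out). MiR9661 was at 26.0 and 6.11 in DBA Aurora and at 2325 and 249 in L6 (log2 −2.57, adjusted p = 0.0109), so that the levels of the 2 genotypes lay far apart while both were lower after stress. MiR9774 (log2 −2.49), miR530 (−2.43) and miR827 (−2.04) fell too. MiR530 shows what the totals add, since it was at 1239 and 152 in DBA Aurora and at 1588 and 442 in L6, but none of its 4 tested sequences was called alone. The families that rose were miR9678, with 0 and 13.2 in DBA Aurora and 9.70 and 26.6 in L6 (log2 2.60, adjusted p = 0.0400), and miR9676 (log2 1.89, adjusted p = 0.0109). The rise of miR9678 rests on 26.6 counts at most and was lost with a pseudocount of 5. Called falls were also found for miR9773, a single sequence, at 25651 and 3842 and at 12559 and 4960 (log2 −2.04), and for miR9654 (log2 −1.67), which were named as the remaining called families. Without AuWH_N 3 families were called, all lower.

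**Figure D3:**
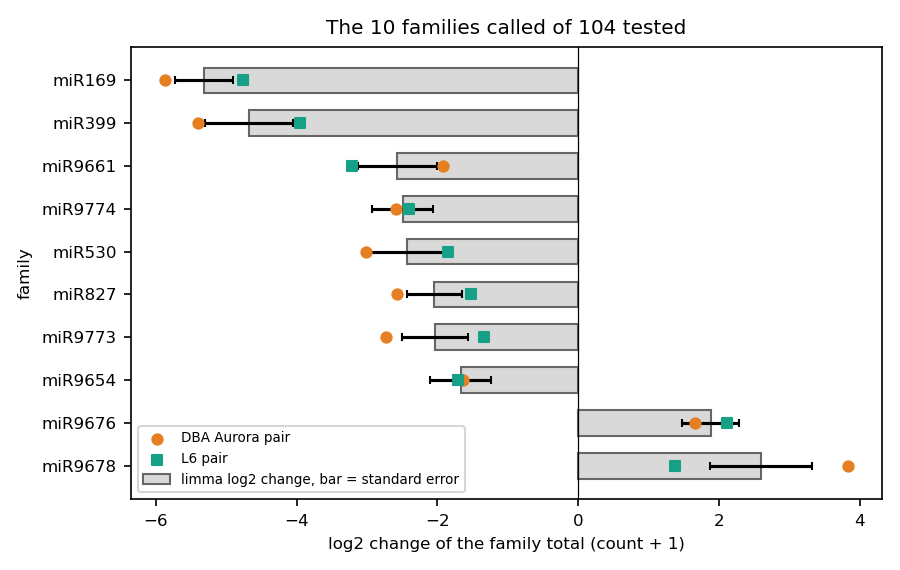
Log2 change of the summed counts of the 10 called families. Grey bars give the limma estimate with its standard error, circles the change within DBA Aurora and squares the change within L6. Every called family moved the same way in both genotypes, from −5.32 for miR169 to 2.60 for miR9678.

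The libraries that met 1 stress show where these levels stand when parental and progeny stress are taken apart. They share their never-stressed libraries with the comparison above. The summed count of miR169 was 23673 in AuWH_C and 16412 in L6WH_C, with parental stress alone, and 752 in AuCG_N and 766 in L6CG_N, with N starvation alone. osa-miR399d was at 412 and 491 with parental stress alone and at 29.8 and 6.83 with N starvation alone, in DBA Aurora and L6. For both, the libraries with N starvation alone lay nearer to the doubly stressed ones, and those with parental stress alone nearer to the never-stressed ones. Among the rises, ata-miR167b-3p and bdi-miR159a-3p had the same order. ata-miR167b-3p was at 3474 and 2741 with parental stress alone and at 9510 and 8213 with N starvation alone, and bdi-miR159a-3p at 739 and 655 and at 2400 and 1898.

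The sequences given here were chosen after their values were seen, and no count is drawn from the order because the comparisons share libraries. osa-miR827 was at 2441 in AuCG_N, near the 1431 of AuWH_N, but at 5089 in L6CG_N, near the 5412 of the never-stressed L6CG_C and above the 1836 of L6WH_N. PC-3p-24935_169 was at 10.97 in AuCG_N and 39.98 in L6CG_N, at 17.1 in AuWH_C and 36.6 in L6WH_C, and at 0 and 3.25 with both stresses. bdi-MIR171a-p5 was at 1006 and 1153 with N starvation alone, at 1189 and 1622 with parental stress alone and at 628 and 809 with both.

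**Figure D4:**
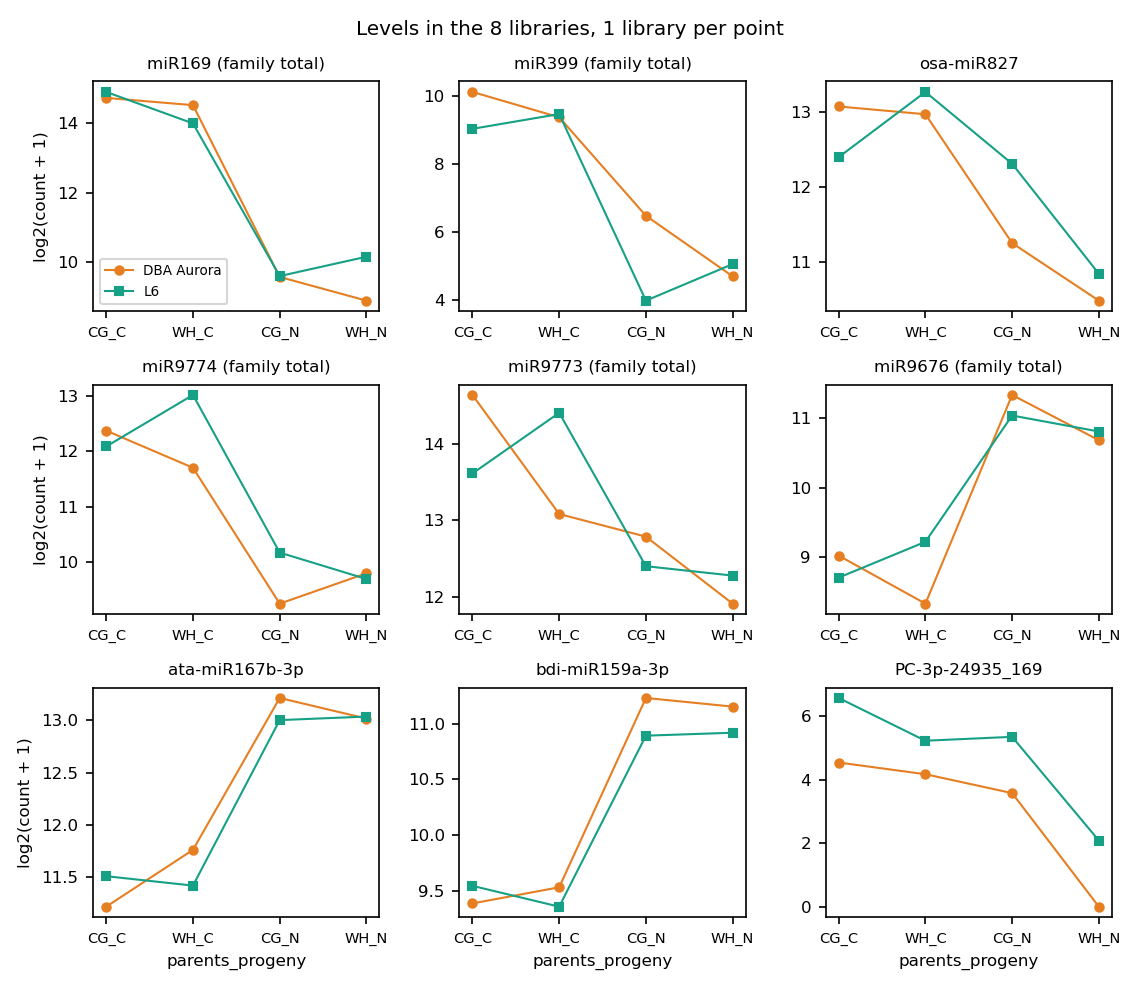
Levels, as log2(count + 1), of 5 family totals and 4 single sequences in all 8 libraries, with 1 library per point and the parental and progeny treatments on the x axis. CG_C is never stressed, WH_C parental stress alone, CG_N N starvation alone and WH_N both. For miR169, miR399, miR9774, miR9773, miR9676, ata-miR167b-3p and bdi-miR159a-3p the WH_N points lie nearer to the CG_N than to the CG_C points. The entry PC-3p-24935_169, miR9773 and osa-miR827 are lowest in WH_N in both genotypes. For PC-3p-24935_169 these WH_N points are a listed 0 in DBA Aurora and the floor of 5 reads in L6.

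Whether both stresses together differed from the sum of each alone, on the log2 scale, was tested as the interaction of parental and progeny treatment. Of 611 sequences limma called 0, and 13 (2.13%) had an unadjusted p below 0.05. The smallest adjusted p was 0.995, and the median standard error of the interaction was 0.77, wider than that of the main comparison. The lowest p belonged to tae-miR9654a-3p (3.01), PC-3p-24935_169 (−2.57), hvu-miR1436_L+2R+1_1ss4CT (2.79), tae-miR1131_L+2_2ss10GA20TG (4.21) and tae-MIR1128-p5_1ss12TC (5.06). Of these, PC-3p-24935_169 was lower with both stresses than the single stresses add up to. tae-miR9654a-3p was at 26.0 in AuCG_C, 15.8 in AuWH_C, 0 in AuCG_N and 10.2 in AuWH_N, and at 56.0, 68.9, 4.88 and 25.002 in L6. The value of osa-miR827 was −1.50 (unadjusted p = 0.040, adjusted p = 0.995). For the family totals 0 of 104 were called and 4 (3.85%) had an unadjusted p below 0.05, with a smallest adjusted p of 0.937.

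No difference between the tolerant and the sensitive genotype in their change was detectable with 1 library per condition. As a term for genotype, limma called 0 of 611 sequences, 7 (1.15%) had an unadjusted p below 0.05, and the smallest adjusted p was 0.999. The term is the change in DBA Aurora minus that in L6, and its median standard error was 1.26, so that only large differences could pass. Its lowest p belonged to mtr-miR398a-5p_1ss7AC, which was at 280 in AuCG_C and 0 in AuWH_N but at 159.5 in L6CG_C and 60.4 in L6WH_N (difference −6.75, standard error 1.54). bdi-MIR169c-p3 (3.71), tae-MIR9654b-p5_1ss21AG (−6.37) and osa-MIR398a-p3 (−5.81) followed. The value of bdi-MIR169c-p3 depends on a count at the floor of 5 reads in AuWH_N and a listed 0 in L6WH_N. osa-MIR398a-p3 was at 51.9 and 0 in DBA Aurora and at 18.3 and 19.5 in L6. bdi-miR5062a_1ss22CA (10.51) was listed in L6CG_C alone of the 8 libraries, at 1453, and its value therefore rests on 1 library. Across the 611 sequences the changes in the 2 genotypes, which share no library, had a Pearson correlation of 0.756, and of 0.568 over the 584 outside miR169. Sequences are not independent replicates, and 428 (70.0%) had the same sign in both.

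A rule for a pair of libraries, Fisher's exact test at a p threshold of 0.05 with an absolute log2 ratio over 1, was applied to each genotype. It compares libraries, not conditions. In DBA Aurora 212 sequences passed (34.7%), 78 higher (12.8%) and 134 lower (21.9%), and in L6 202 (33.1%), 77 higher (12.6%) and 125 lower (20.5%). Scaled to the clear reads of each library, the split in DBA Aurora was 103 higher and 109 lower, and at equal totals that in L6 was 53 and 143. In both genotypes 92 sequences were lower (15.1%) and 39 higher (6.38%), and 45 of the 46 limma calls were among these 131. In DBA Aurora alone 78 passed (12.8%) and in L6 alone 68 (11.1%), which is no test of a difference between them.

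MiR1432, which targets EF-hand genes of calcium signalling, had values that moved apart in the 2 pairs, but none of its sequences was called for a genotype difference. osa-miR1432-5p_L-1R+1 was among the 3 largest rises of DBA Aurora, with 55.5 in AuCG_C and 900.4 in AuWH_N (log2 ratio 4.02, 95% interval of counting error alone 3.65 to 4.42), but had 666 in L6CG_C and 448 in L6WH_N. The other 2 were PC-5p-9811_380 (0 and 202) and tae-MIR9664-p5 (96.6 and 1239, log2 ratio 3.68). ata-miR1432-5p_L+1R-1 was at 962 and 10338 in DBA Aurora and at 7417 and 4455 in L6. For the 4 tested miR1432 sequences the median change was 3.30 in DBA Aurora and −0.65 in L6. In L6 the 3 largest rises were tae-miR9676-5p (log2 ratio 2.23), mes-miR156a_L+1R+3 (72.2 and 277, 1.94) and tae-MIR9676-p3 (1.94). The largest falls were miR169 strands and, in L6, bdi-miR5062a_1ss22CA. Only 3 sequences passed in opposite directions (0.491%), among them sbi-miR1432, at 113 and 510 in DBA Aurora and at 1881 and 258 in L6. tae-MIR9654b-p5_1ss21AG and tae-MIR1122c-p5_2ss4AG21GC were lower in DBA Aurora and higher in L6, at 39.6 counts or fewer in the 4 libraries.

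Presence and absence come from the same 4 libraries and restate the fall of miR169, so they add no support to it. Of the 1473 sequences, 44 were miR169. Listed in both never-stressed libraries and in neither doubly stressed one were 59, with 21 of miR169 and a highest mean of 572. The reverse held for 70, of which 0 were miR169, 3 passed the filter and the highest mean was 34.5. L6WH_N is the deepest of the 4 libraries, and the part of depth in the second count was not tested. Where both arms of a hairpin were tested, 96 of 150 pairs moved the same way and 54 opposite ways. Some strands occur in more than 1 of these pairs, which are therefore not independent. Outside miR169 it was 86 of 140. Both arms were called in 11 pairs, always downwards, of which 10 were miR169 and 1 was the pair of bdi-MIR399a-p5 and bdi-miR399a_1ss16AG.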

How the data were processed

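Small RNA of 8 shoot libraries was sequenced. Per the study's methods, reads were filtered and annotated by the program ACGT101-miR, with miRBase 22.1 and the Svevo.v1 assembly as references. The deposited signal values are the authors' normalized reads count of each entry. The sources used here do not state each library's factor. Within a tolerance of 0.02, 97.9 to 98.9% of low values were whole multiples of 1 value per library, taken as that of 1 read. The rest were not, so no count model was run.

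The 1532 entries hold 1473 distinct sequences, of which 1398 were above 0 in 1 or more of the 4 libraries. The members and lists were chosen with earlier results of these data known. Sequences with a mean of 10 or more were tested on log2(count + 1), which understates folds of low counts above 0. For sequences listed at 0, which may have had a few reads, it can overstate them. The test was limma 3.58.1 (R 4.3.3) with a moderated, trended variance, 3 residual degrees of freedom, Benjamini-Hochberg adjustment and a threshold of 0.05. The sequences nearest to the filter were PC-5p-55069_84 (mean 10.1) inside it and hvu-miR5049c_L-2_1ss6AG (9.98) outside it. Family totals and the interaction used this model as well, and the genotype difference one with 2 residual degrees of freedom. Fisher's exact test, which the study used for pairs beside a chi-square test (run as an alternative), was two-sided on rounded counts, with exact binomial 95% intervals on estimated reads (scipy 1.17.1). Pairing came from the genotype. The fits were tested on simulated data.

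The text draws its names from the 10 largest rises and falls that passed and moved alike in both genotypes, the 5 sequences of lowest p for each of the interaction and the genotype difference, the 3 largest rises and falls of each pair at a count of 100 or more, up to 4 abundant members per list, the miRNAs of the study's qPCR and the 6 largest rises and falls among families. The other called falls, partner arms and further family members were chosen after their values were seen. Alternatives changed the pseudocount, filter, scaling, variance model or libraries. Raw reads and qPCR data were not used here.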

Additional observations from a re-analysis of the deposited data

How the results depend on the processing

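None of the 46 called sequences changed direction under any alternative run, whereas medians of all tested sequences and of some lists changed sign with the scaling, as given with the lists above. Of the 46, 11 were called under every alternative in which they were fitted, all of them miR169 (9 of them were fitted in all, 2 in all but 1), and 22 under every such alternative that left out no library. The 46 calls became 27 of 1398 without a filter and 30 without a mean trend. They ranged from 12 to 80 when 1 library was left out. The 10 family calls became 1 with the mean of log2 values in place of the log2 of the total (miR169) and 25 with the 4 compared libraries and the genotype as a block, and ranged from 3 to 12 when 1 library was left out. The genotype difference, with 0 calls, gave 1 to 6 when a single-stress library was left out, and leaving out one of the 4 compared libraries could not be fitted. The interaction had 0 calls each time. By Fisher's rule, the 212 sequences of DBA Aurora became 484 without a filter, 101 at a mean of 50 or more and 88 at a level of 100 or more, and the 202 of L6 became 446, 89 and 81. The cause was not tested, beyond the change in the number of sequences that a filter makes. With the 4 compared libraries alone, the genotype as a block gave 56 calls and no block 64. Beyond this pairing by genotype no paired analysis was possible, because each condition had 1 library and so no replicates to pair. Sequences listed at 0 limit the folds at low depth.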
